A study of Mus musculus with 35 samples.

Results

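TREM2 is a receptor on the surface of microglia that binds lipids and lipoproteins, and 6 transcripts of its signalling axis were followed here across brain regions: Trem2 itself, its adaptor Tyrobp, the lipoprotein ligand Apoe, and the downstream enzymes Syk, Plcg2 and Inpp5d. The 6 genes were taken by symbol from the 21236 genes of the count table. Microglia were sorted from the prefrontal cortex (PFC; n = 11, 5 of them male), midbrain (n = 12) and striatum (n = 12) of 12 adult mice, 6 male and 6 female, which gave 35 samples. All mice, in every group, were heterozygous for Tmem119-2A-CreERT2 and Ai14(RCL-tdTomato)-D and had received Tamoxifen, so that cells in which the microglial gene Tmem119 was active when Tamoxifen was given carried the red reporter. There were no untreated or reporter-free animals, and cells without the reporter were not sequenced.

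TREM2 has no signalling tail of its own. It pairs in the membrane with TYROBP (also called DAP12), whose ITAM motif is phosphorylated by Src family kinases and then recruits the kinase SYK. SYK leads to the phospholipase PLCG2, which raises calcium and diacylglycerol, and to PI3K, while the phosphatase SHIP1, encoded by Inpp5d, removes a phosphate from the PI3K product and so opposes it. APOE, the lipid carrier that binds TREM2, is made mainly by astrocytes in the healthy brain and is also made by microglia when they are activated and by macrophages at the borders of the brain. Variants in the human genes for TREM2, APOE, PLCG2 and SHIP1 are known for their link to Alzheimer's disease.

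Library sizes lay between 37680501 and 54131421 counts. Values are CPM, counts scaled to library size with TMM factors, and 3 counts, taken as the floor, stood for 0.0561 to 0.0789 CPM. Microglial markers were high in every sample: 8 transcripts including Tmem119 and P2ry12 summed to 30810 to 41640 CPM. Markers of other cells were low, with sums of 213.5 to 507.1 CPM for 10 astrocyte transcripts, 231.7 to 850.7 for 9 oligodendrocyte transcripts, 8.928 to 78.95 for 6 endothelial transcripts, 4.576 to 33.17 for 10 neuronal transcripts and 0.8757 to 44.49 for 6 monocyte and neutrophil transcripts. The most abundant genes of these lists were Slc1a3 (mean 209.2 CPM), Cnp (162.9), Pecam1 (22.27), Snap25 (4.692) and Ccr2 (2.622). Immediate early genes, which rise in microglia during dissociation, summed to 17820 to 41980 CPM, with Egr1 highest at a mean of 5697. The 8 border macrophage transcripts in the table summed to 2.648 to 20.92 CPM in 34 samples, with Mrc1 highest over all samples (mean 4.504 CPM). The midbrain sample of mouse 6 stood apart at 127.7 CPM, and results that changed without it are given both ways.

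All 6 members passed the authors' filter on low expression and none shared exonic sequence with another annotated gene. Trem2 (ENSMUSG00000023992) lies on the plus strand at chr17:48346401-48354147 of GRCm38, Tyrobp (ENSMUSG00000030579) on the plus strand at chr7:30413760-30417585, and Apoe (ENSMUSG00000002985) on the minus strand of the same chromosome at chr7:19696109-19699188. Syk (ENSMUSG00000021457), at chr13:52583173-52648792, Plcg2 (ENSMUSG00000034330), at chr8:117498291-117635142, and Inpp5d (ENSMUSG00000026288), at chr1:87620312-87720507, are on the plus strand of long gene bodies. Their principal transcripts also differ in length, with 564 bases for Tyrobp, 1088 for Trem2 and 1408 for Apoe against 4298 for Plcg2, 4937 for Inpp5d and 5363 for Syk.

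Promoter windows of RefSeq (GRCm38.p6; 250 bases before to 50 after the start) were at hand for 5 members, all but Tyrobp. They were searched on both strands for GAGGAA, which reads TTCCTC on the other strand, the core letters bound by PU.1, the lineage factor of macrophages and microglia. Of 32851 windows of the same length, 28.3% held a match, and so did 3 of the 5 members' windows, those of Trem2, Apoe and Inpp5d. A match gives letters only and is not a measured site. The windows of these 3 genes and of Plcg2, the member whose transcript level moved most closely with that of Inpp5d, are printed 5′ to 3′ on the gene's strand with matches in capitals. They lie at chr17:48346151-48346450 for Trem2, chr7:19699139-19699438 for Apoe, chr1:87620062-87620361 for Inpp5d and chr8:117498025-117498324 for Plcg2.
Trem2: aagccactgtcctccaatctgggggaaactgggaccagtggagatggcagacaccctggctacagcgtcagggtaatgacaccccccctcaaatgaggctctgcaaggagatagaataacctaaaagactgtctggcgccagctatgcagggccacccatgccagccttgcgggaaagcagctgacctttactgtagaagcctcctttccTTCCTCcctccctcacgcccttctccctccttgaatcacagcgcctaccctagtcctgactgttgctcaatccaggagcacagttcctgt
Apoe: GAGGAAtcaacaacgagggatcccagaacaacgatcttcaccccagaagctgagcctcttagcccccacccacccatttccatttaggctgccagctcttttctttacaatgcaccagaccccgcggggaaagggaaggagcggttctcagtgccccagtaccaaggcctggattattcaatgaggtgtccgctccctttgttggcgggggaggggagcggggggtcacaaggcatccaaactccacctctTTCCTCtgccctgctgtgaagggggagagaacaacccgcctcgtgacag
Inpp5d: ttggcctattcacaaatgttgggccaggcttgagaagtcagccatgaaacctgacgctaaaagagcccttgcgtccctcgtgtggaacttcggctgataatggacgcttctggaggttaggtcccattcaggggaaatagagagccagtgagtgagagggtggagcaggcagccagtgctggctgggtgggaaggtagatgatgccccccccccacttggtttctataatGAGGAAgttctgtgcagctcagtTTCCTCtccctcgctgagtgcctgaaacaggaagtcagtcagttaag
Plcg2: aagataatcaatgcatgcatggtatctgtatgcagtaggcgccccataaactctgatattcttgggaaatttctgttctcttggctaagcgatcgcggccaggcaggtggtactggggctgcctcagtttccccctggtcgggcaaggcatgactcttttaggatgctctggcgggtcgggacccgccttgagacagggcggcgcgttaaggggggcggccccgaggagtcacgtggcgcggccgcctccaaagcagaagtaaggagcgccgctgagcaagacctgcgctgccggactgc
Trem2 held 1 match, Apoe and Inpp5d 2 each, and Plcg2 and Syk held none.

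The receptor and its adaptor were among the most abundant transcripts of these cells. By mean CPM, Tyrobp ranked 54 and Trem2 65 of 21236 genes, Inpp5d 174, Apoe 256, Plcg2 1278 and Syk 1390. Per kilobase of the principal transcript, which allows levels to be set between genes, Tyrobp came first at a mean of 3393 CPM, followed by Trem2 at 1409, Apoe at 350.6, Inpp5d at 141.8, Plcg2 at 29.19 and Syk at 21.73. This order was the same in 28 of 35 samples. Neighbours changed places in the other 7, with Inpp5d above Apoe in 4, Syk above Plcg2 in 2 and Apoe above Trem2 in 1, the midbrain sample of mouse 6. The adaptor was thus above its receptor in every sample, whereas the ranks of Apoe against Inpp5d and of Plcg2 against Syk varied with the sample. With lengths taken over all annotated exons the means kept this order, at 2869 for Tyrobp, 309.9 for Trem2, 230.9 for Apoe, 92.1 for Inpp5d, 29.19 for Plcg2 and 12.45 for Syk.

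Members differed in how much they varied among samples of the same region and sex. On the log2 CPM scale the within-group SD of Trem2 was 0.152, lower than that of most of the 8623 genes with a mean of at least 8 CPM (percentile 16.9, against a median SD of 0.225). The SD was 0.228 for Syk, 0.263 for Inpp5d, 0.265 for Tyrobp and 0.298 for Plcg2, between percentiles 51.5 and 75.7. Apoe stood apart with an SD of 0.846 at percentile 99.3, and without the midbrain sample of mouse 6 it was 0.781 at percentile 99. Between the lowest and the highest of the 35 samples Apoe differed 27.6-fold (12.8-fold without the midbrain sample of mouse 6), compared to 1.77-fold for Syk and 2.35-fold for Plcg2, with the other 3 members in between.

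To determine whether the axis differed between brain regions, an additive model of region and sex was fitted with edgeR across all genes. A main effect of region at a Benjamini-Hochberg adjusted p-value under 0.05 was found for 8.89% of all genes and for 0 of the 6 members (1 at an unadjusted p-value under 0.05, and 0 adjusted with DESeq2). Among the 1390 genes at least as abundant as Syk the share was 18.7%. The edgeR and DESeq2 fits did not pair the regions of a mouse. With the mouse as a replicate block Inpp5d had a region effect, and some other alternatives called Apoe, Inpp5d or Trem2, as given in the last section. For PFC over midbrain, 2.88% of genes were higher and 3.64% lower, compared to 0 members higher and 1 lower, Apoe. For striatum over midbrain 4.18% of genes were higher and 3.27% lower, and for striatum over PFC 0.391% higher and 0.179% lower, with 0 members in any of these 4 groups. In each of these 2 comparisons 1 member had an unadjusted p-value under 0.05, and DESeq2 called none.

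**Figure D1:**
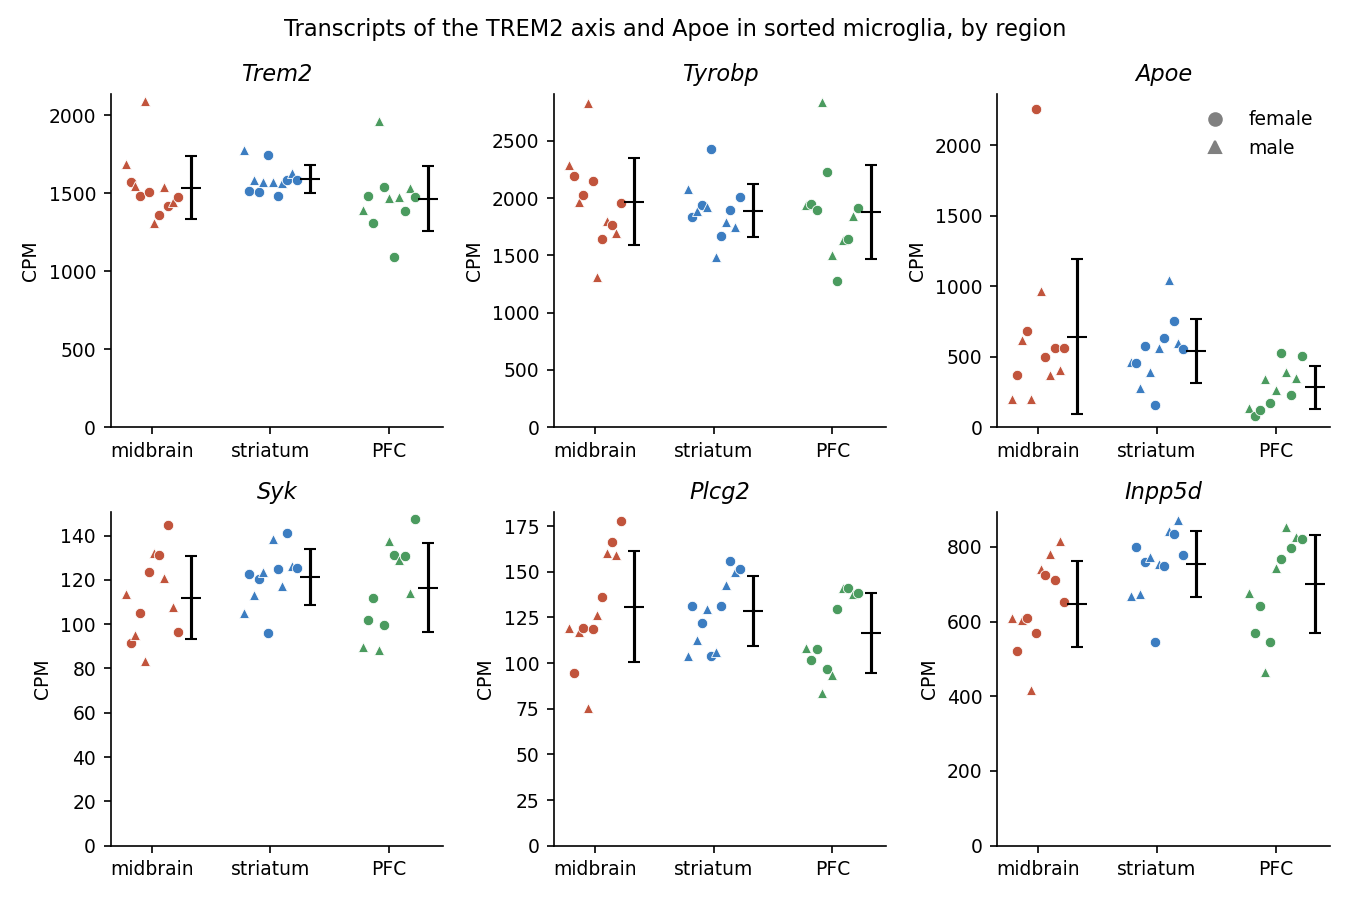
TMM-normalised CPM (y axis, from 0) of the 6 members in each sample by region (x axis), with circles for females, triangles for males, and a bar for the mean and SD of the region (n = 12, 12 and 11). The clouds of the 3 regions overlap in every panel, and the midbrain sample of mouse 6 lies alone at 2257 CPM in the Apoe panel.

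Trem2 was nearly level across the regions. It ranged from 1306 to 2089 CPM (median 1494) in the midbrain, 1480 to 1779 (median 1579) in the striatum, and 1089 to 1965 (median 1473) in the PFC. The means were 1535 ± 200.6 (SD, n = 12), 1593 ± 89.21 (SD, n = 12) and 1464 ± 209.4 (SD, n = 11). The striatum, with the highest mean, lay within the range of both other regions. The log2 fold change was -0.06 ± 0.06 (SE) for PFC over midbrain (adjusted p = 0.705), 0.055 ± 0.06 for striatum over midbrain (adjusted p = 0.689) and 0.12 ± 0.06 for striatum over PFC (adjusted p = 0.462). The 95% confidence intervals ran from -0.19 to 0.06, -0.07 to 0.18 and -0.01 to 0.25. Within mice, the striatum was above the PFC in 10 of 11 and above the midbrain in 10 of 12, by a median of 0.11 and 0.09 on the log2 scale.

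Tyrobp, the adaptor, showed the same lack of a detectable difference. Its CPM ran from 1314 to 2829 (median 1961) in the midbrain, 1488 to 2428 (median 1893) in the striatum and 1275 to 2835 (median 1893) in the PFC, all overlapping. Means were 1969 ± 382.6 (SD, n = 12), 1891 ± 230.8 (SD, n = 12) and 1877 ± 408.7 (SD, n = 11). The log2 fold changes were -0.07 ± 0.10 for PFC over midbrain, -0.06 ± 0.10 for striatum over midbrain and 0.01 ± 0.10 for striatum over PFC (SE), with adjusted p-values of 0.837, 0.813 and 0.985. Mice were divided on the direction, with the striatum above the midbrain in 6 of 12.

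Among the downstream enzymes, Syk, the kinase that docks on TYROBP, ranged from 83.21 to 144.9 CPM (median 110.7) in the midbrain, 95.91 to 141.3 (median 123.1) in the striatum and 88.4 to 147.4 (median 114.2) in the PFC. All regions overlapped, and the log2 fold changes of 0.05 ± 0.09, 0.11 ± 0.09 and 0.06 ± 0.09 (SE; PFC over midbrain, striatum over midbrain, striatum over PFC) had adjusted p-values of 0.859, 0.519 and 0.862. Plcg2, the phospholipase, ranged from 75.58 to 177.6 CPM (median 122.8), 103.9 to 155.9 (median 130.4) and 83.36 to 141.2 (median 108.4) in midbrain, striatum and PFC. It was lower in the PFC than in the midbrain of 9 of 11 mice, but the log2 fold change of -0.17 ± 0.11 (SE) did not pass (adjusted p = 0.49).

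Inpp5d, which encodes the phosphatase SHIP1, ranged from 417.3 to 815.9 CPM (median 630.3) in the midbrain, 545.9 to 870.5 (median 766.4) in the striatum and 465.2 to 852.2 (median 743.9) in the PFC. Means were 646.2 ± 114.7 (SD, n = 12), 753.9 ± 89.47 (SD, n = 12) and 700.4 ± 130.2 (SD, n = 11). The midbrain was the lowest of the regions in the mean and overlapped both others. The striatum over midbrain log2 fold change was 0.22 ± 0.10 (SE; adjusted p = 0.167), with the striatum higher in 11 of 12 mice, and the PFC was above the midbrain in 10 of 11 mice (log2 fold change 0.12 ± 0.10; adjusted p = 0.631). With the mouse as a replicate block in the model, which compares regions within the animal, the striatum over midbrain difference of Inpp5d was 0.24 with an adjusted p of 0.0103. A covariate for mice numbered 1 to 6 against 7 to 12 gave 0.24 and 0.0164. The difference was 0.34 (adjusted p = 0.173) in mice 1 to 6 alone, 0.12 (adjusted p = 0.231) in mice 7 to 12 alone, 0.14 (adjusted p = 0.468) with the astrocyte markers as a covariate and 0.14 (adjusted p = 0.0925) with an index of transcript length as a covariate, which is described further on.

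**Figure D2:**
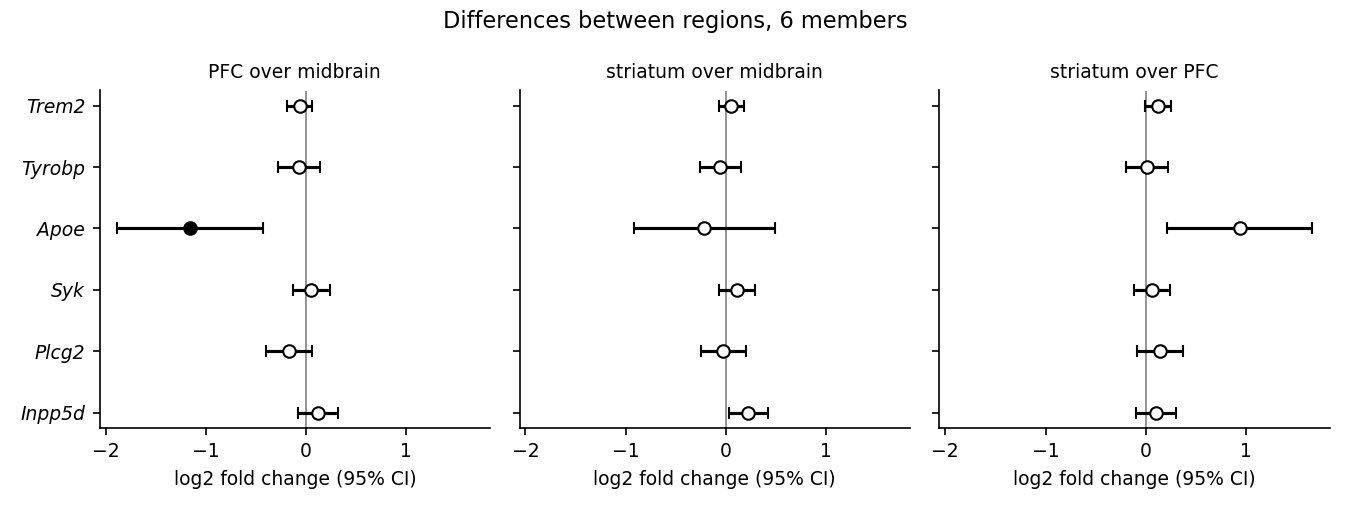
Log2 fold change (x axis) of the 6 members for each pair of regions, with bars for the 95% confidence interval of the edgeR fit and a filled circle for an adjusted p under 0.05. Apoe in PFC over midbrain, at -1.15, is the only filled circle, and its intervals are the widest in each panel.

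Apoe was the member with the largest regional difference. Its CPM ranged from 200.5 to 2257 (median 528.2) in the midbrain, 159.6 to 1042 (median 557.4) in the striatum and 81.66 to 529 (median 266.3) in the PFC. Means were 641.1 ± 551.2 (SD, n = 12), 539.1 ± 226.1 (SD, n = 12) and 283.2 ± 152 (SD, n = 11). The lowest PFC values lay below every value of the other regions, but the ranges overlapped. Transcript levels were 2.22-fold lower in the PFC than in the midbrain, a log2 fold change of -1.15 ± 0.36 (SE; 95% confidence interval -1.88 to -0.425) with an adjusted p of 0.0445. The main effect of region, however, had an adjusted p of 0.0765, so that Apoe was not called under the 2-step rule of the study, which asks for a region effect first.

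Within animals the pattern was less even than the means. The PFC was lower than the midbrain in 8 of 11 mice, by a median of -0.55 on the log2 scale with a range of -3.71 to 0.77. It was lower than the striatum in 10 of 11 mice, by a median of 1.07, although this difference did not pass the test across genes (log2 fold change 0.94 ± 0.35 for striatum over PFC; adjusted p = 0.25). Of the 11 mice with all 3 regions, the PFC was lowest in 7 and highest in 0, whereas the striatum was highest in 7 and the midbrain in 4. Striatum and midbrain did not differ detectably (log2 fold change -0.22 ± 0.34; adjusted p = 0.793), and the striatum was the higher in 7 of 12 mice.

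**Figure D3:**
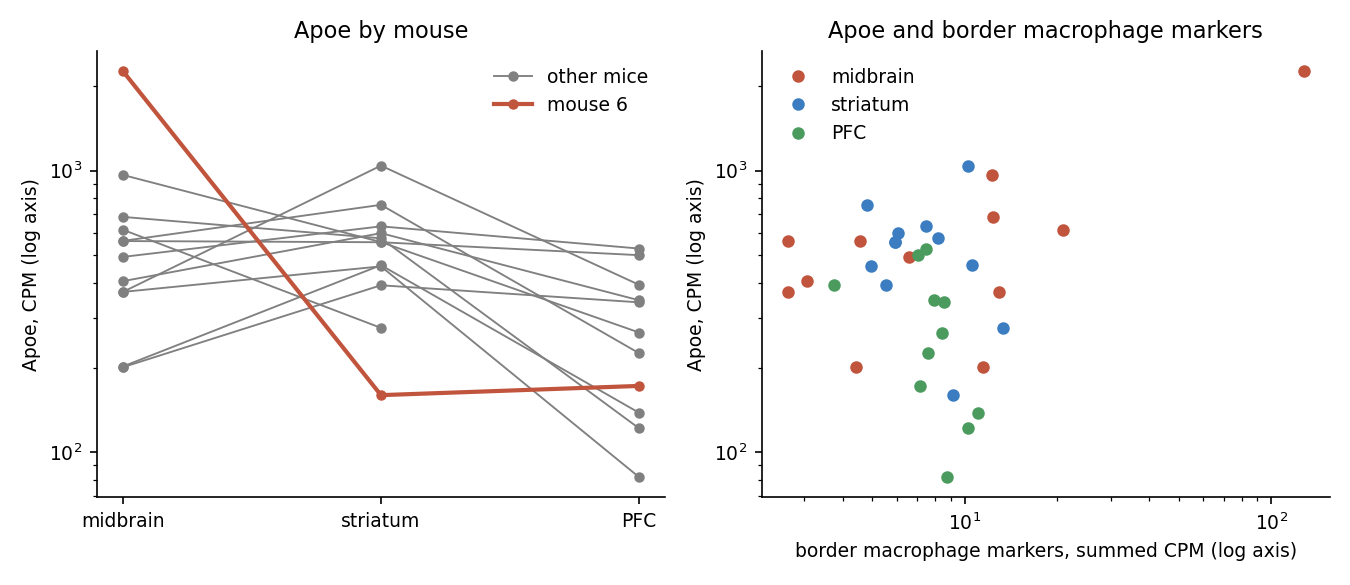
Left, Apoe CPM (y axis, log scale) in the 3 regions with a line for each mouse. Right, Apoe CPM against the summed CPM of 8 border macrophage transcripts (both log scales), coloured by region. Mouse 6 has the highest value in the midbrain, 2257 CPM, and the lowest in the striatum, 159.6 CPM, and its midbrain sample is alone at the right with 127.7 CPM of border macrophage transcripts.

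The PFC over midbrain call for Apoe was close to the threshold, and its size depended on mouse 6. The midbrain sample of mouse 6 held 2257 CPM of Apoe, whereas the other 11 midbrain samples ranged from 200.5 to 965.6 (mean 494.2 ± 222 SD, n = 11). All 8 border macrophage transcripts in that sample were above the median of the other midbrain samples and 5 of 8 were above every other sample, with Ms4a7 at 97.91 CPM against at most 4.795, Mrc1 at 16.41 against at most 8.506 and Pf4 at 5.413 against at most 2.326. Cd163, at 0.3043 CPM, was not among the 5, and its median was 0 in the other midbrain samples. Its microglial transcripts, at a sum of 33220 CPM, were within the range of the others, although Tmem119, at 2778 CPM, was below the other midbrain samples (2831 or more). The monocyte and neutrophil transcripts summed to 6.195 CPM against at most 5.599 in the other midbrain samples and 44.49 over all other samples. Of this list only Ly6c2 was above every other sample, at 3.63 CPM against at most 1.24. Ccr2 (1.761 CPM), Plac8 (0.7826) and Ngp (0.02174) lay within the range of the other midbrain samples, and S100a8 and S100a9 were at 0. The part of border macrophages or other cells in the Apoe value was not tested, and more Apoe per cell and more cells with much Apoe cannot be told apart in bulk samples. Without this sample the PFC over midbrain difference was -0.80 (adjusted p = 0.135) and that of striatum over midbrain changed sign to 0.125 (adjusted p = 0.878), and with the border macrophage markers as a covariate the former was -0.715 (adjusted p = 0.279).

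The call was also lost without mouse 2, 3, 4, 7, 10 or 11, although the difference stayed about as large, with log2 fold changes of -1.10, -1.15, -1.06, -1.05, -1.14 and -1.24 and adjusted p-values from 0.0565 to 0.118. With the mouse as a replicate block the difference was -1.14 (adjusted p = 0.0839). It was -1.97 (adjusted p = 0.172) in mice 1 to 6 and -0.58 (adjusted p = 0.288) in mice 7 to 12, so that the direction was the same in both sets. The summed astrocyte markers were higher in the PFC (median 341.4 CPM) and striatum (354.2) than in the midbrain (240.7), opposite in direction to Apoe across PFC and midbrain. This did not hold for each transcript: Gfap, Gjb6, S100b and Fgfr3 had lower means in the PFC than in the midbrain. With the mean log2 CPM of the 10 transcripts, and not their sum, as a covariate, the Apoe difference was -1.29 (adjusted p = 0.0141). The oligodendrocyte markers ran in the direction of Apoe, with medians of 294.9 CPM in the PFC, 411.9 in the midbrain and 456.6 in the striatum. Within groups, over the 35 samples, the r of Apoe was 0.568 with the astrocyte, 0.488 with the oligodendrocyte and 0.465 with the endothelial markers, 0.251 with those of border macrophages and -0.517 with those of microglia. The astrocyte markers differed by region and varied with Apoe within groups, so the fit with them as a covariate does not measure the astrocyte part. The part of astrocyte, oligodendrocyte and endothelial transcripts in the Apoe difference was not tested.

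To determine whether any member differed between the sexes, the main effect of sex and its interaction with region were tested. Sex had an effect on 0.339% of genes and on 0 of the 6 members (1 at an unadjusted p-value under 0.05; 0 with DESeq2). That member was Trem2, at a mean of 1473 CPM in females and 1597 in males (log2 fold change -0.115 ± 0.05 SE; adjusted p = 0.537). An interaction was called by edgeR for 0% of genes (632 at an unadjusted p-value under 0.05, 1 adjusted with DESeq2) and for no member, whose unadjusted p-values were all at 0.293 or above. Apoe in the midbrain was 822.1 ± 710.4 CPM in females and 460.1 ± 291.6 in males (SD, n = 6 each; edgeR adjusted p = 0.97), with mouse 6 among the females. Without that sample the overall female over male log2 fold change of Apoe was -0.001, against 0.215 with it.

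Levels of the members were next compared with each other across the 35 samples, as deviations from their group of region and sex. Trem2 and Tyrobp varied together (Pearson r = 0.904, Spearman rho = 0.824), as did Plcg2 and Inpp5d (r = 0.879, rho = 0.87) and Syk and Inpp5d (r = 0.781, rho = 0.75). The receptor and adaptor ran opposite to the downstream enzymes, with r = -0.791 for Tyrobp and Inpp5d, -0.739 for Trem2 and Inpp5d and -0.724 for Tyrobp and Syk. Apoe was looser, between -0.437 with Tyrobp and 0.544 with Syk, and between -0.537 with Tyrobp and 0.583 with Inpp5d without the midbrain sample of mouse 6. Samples of a mouse are not independent of each other, and these values are descriptions.

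The sign of some of these relations depended on the mice. In mice 1 to 6 (17 samples) and mice 7 to 12 (18 samples), Trem2 and Tyrobp moved together in both sets (r = 0.955 and 0.891), and so did Plcg2 and Inpp5d (0.924 and 0.663). Trem2 and Inpp5d, in contrast, were at -0.913 in the former and 0.323 in the latter, and Tyrobp and Plcg2 at -0.831 and 0.706. Syk and Inpp5d were at 0.718 and 0.069, and Syk and Plcg2 at 0.794 and -0.476. The sets themselves differed in level: Tyrobp averaged 2140 ± 306 CPM (SD, n = 17) in mice 1 to 6 and 1699 ± 206 (n = 18) in mice 7 to 12, while Inpp5d averaged 614.6 ± 105 and 781 ± 56.6 and Plcg2 108.5 ± 15.2 and 141.4 ± 20.4. The labels name no batch, and what separates the sets was not tested.

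Transcript length moved with these levels. An index was made of the mean log2 CPM of 325 genes with under 1000 bases of exons less that of 3653 genes with over 5000, members left out. Over all annotated exons Trem2, with 4946 bases, is longer than Plcg2, with 4298. The index averaged 0.19 ± 0.19 (SD, n = 17) in mice 1 to 6 and -0.18 ± 0.13 (n = 18) in mice 7 to 12, and 0.05, -0.06 and 0.02 in midbrain, striatum and PFC. Within groups its r was 0.93 with Tyrobp and 0.866 with Trem2, whose principal transcripts are short, and -0.872 with Inpp5d, -0.736 with Plcg2 and -0.735 with Syk, whose principal transcripts are long, compared to -0.494 with Apoe. Of 8623 genes, Tyrobp stood at percentile 98.8 and Inpp5d at 0.371 of this correlation. In mice 7 to 12 alone, the r of Trem2 and Tyrobp stayed high at 0.924 and 0.827, while those of Syk, Plcg2 and Inpp5d were -0.074, 0.318 and 0.104.

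With the index taken out of the deviations, the r of Trem2 and Tyrobp was 0.534 and that of Plcg2 and Inpp5d 0.717, whereas that of Trem2 and Inpp5d was 0.067. With the index as a covariate, Trem2 had a log2 fold change of 0.12 for striatum over midbrain (adjusted p = 0.0212) and 0.17 for striatum over PFC (adjusted p = 0.00849), both in the direction seen without it and past the threshold with it. Inpp5d, in contrast, had a smaller striatum over midbrain difference with the index than without it, as given above.

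**Figure D4:**
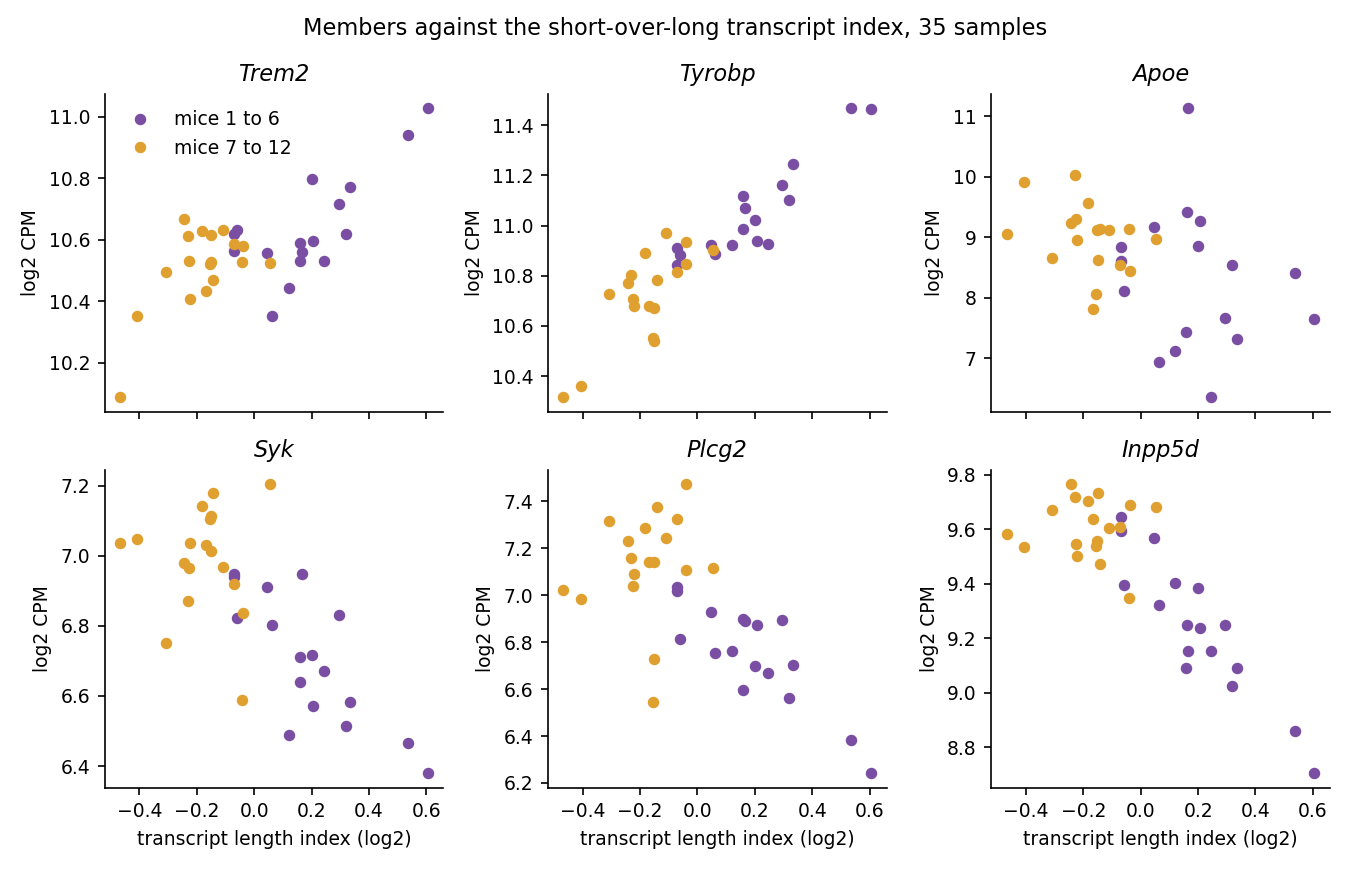
Log2 CPM of the 6 members (y axis) in the 35 samples against the index of short over long transcripts (x axis, log2, centred on 0), coloured by mice 1 to 6 and 7 to 12. Trem2 and Tyrobp climb with the index, Syk, Plcg2 and Inpp5d fall, and the mouse sets lie mostly on opposite sides of 0.

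The genes most like each member, by r within groups over the 35 samples among genes averaging 8 CPM or more, were taken next. For Trem2 they were Cyba (0.908), Tyrobp (0.904), Rnaseh2a (0.897), Mrps24 (0.891) and Cox5b (0.882), and for Tyrobp Gm10250 (0.953), Cox8a (0.949), Tmsb4x (0.947), Atp5mpl (0.947) and Park7 (0.946). For Inpp5d they were Pik3ap1 (0.957), Sh3kbp1 (0.948), Gm15629 (0.936), Washc2 (0.936) and Golm1 (0.934), and for Plcg2 they were Plcb3 (0.937), Sh3kbp1 (0.928), Padi2 (0.925), Myo1f (0.924) and Gm15629 (0.919), so that 2 genes were in both lists. Those of Syk were Adap2os (0.869), Nfatc2 (0.866), Smarcc2 (0.864), Adap2 (0.85) and Ncoa6 (0.845). For Apoe the likeness was lower: Lyz2 (0.761), which encodes the lysozyme of macrophages, Hcfc1 (0.742), Srrm2 (0.742), Hgs (0.732) and Kmt2d (0.732). Without the midbrain sample of mouse 6, where Lyz2 was at 991.5 CPM against at most 695.2 elsewhere, the r of Apoe and Lyz2 was 0.711. The transcript length index was not taken out of any of these values. Within groups its own r was 0.93 with Tyrobp, 0.866 with Trem2 and -0.872 with Inpp5d. How far the lists reflect transcript length was not tested.

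The other genes of the pathway were examined by their place around the receptor, from lists of 118 genes of which 116 were measured. A region effect was found for 40 of 116 (34.5%, beside 8.89% of all genes and 18.7% of the abundant ones). Counted over all 116, with or without a region effect, 10 were higher and 22 lower for PFC over midbrain. The counts were 14 and 18 for striatum over midbrain, and 5 and 0 for striatum over PFC. Medians over the lists were -0.03, 0.00 and 0.07 on the log2 scale beside 0.01 for all genes in each comparison. Whether these genes differed more often than the 6 members was not tested.

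Beside Apoe, 6 genes for other TREM2 ligands and lipoproteins were measured, and 4 had a region effect. Lgals3, the lectin galectin-3, was lower in the PFC (1.418 to 5.477 CPM) than in the midbrain (9.824 to 23.78), with no overlap (log2 fold change -2.34 ± 0.22 SE; adjusted p = 7.34e-10), and was also lower in the striatum (-1.09 ± 0.20; adjusted p = 4.36e-04). Clu, the apolipoprotein clusterin, was instead higher in the striatum, at 49.83 ± 20.4 CPM (SD, n = 12), than in the midbrain, at 14.61 ± 4.9 (log2 fold change 1.77; adjusted p = 6.71e-04). Astrocytes make much of the brain's clusterin. With the astrocyte markers as a covariate the Clu difference was 1.19 (adjusted p = 1.04e-06), and the part of astrocyte transcripts in it was not tested. Apoc1 and Apoc2, neighbours of Apoe in the apolipoprotein cluster, were also lower in the PFC than in the midbrain, but at means of 1.364 and 0.4962 CPM in the midbrain and 0.07602 and 0.02894 CPM in the PFC, the latter at or under the floor.

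Among 13 lipoprotein receptors and genes of cholesterol efflux, 6 had a region effect. Lrp1, a large receptor for APOE, was highest in the striatum, 1.09 ± 0.13 above the midbrain (log2; adjusted p = 1.21e-06) and 0.73 ± 0.14 above the PFC (adjusted p = 0.00472). Abcg1, which passes cholesterol to lipoproteins, was higher by 0.54 ± 0.08 in the PFC and 0.60 ± 0.08 in the striatum (adjusted p = 1.24e-05 and 3.46e-06). Abca7 had a region effect (adjusted p = 0.046) but was past the threshold in no pair.

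The sheddase and gamma-secretase genes that cut TREM2 from the membrane, 7 in all, showed a region effect in none. Of 12 genes listed as other receptors and adaptors, not all of the ITAM type, 3 had one. Siglech was higher than in the midbrain by 0.25 ± 0.05 in the PFC and 0.31 ± 0.05 in the striatum (log2; adjusted p = 0.00101 and 8.48e-05). Csf1r, the CSF1 receptor on which microglia depend, was higher by 0.325 ± 0.08 in the striatum (adjusted p = 0.0125). Clec5a, which also uses TYROBP, was lower there by -0.18 ± 0.05 (adjusted p = 0.0177). With the astrocyte markers as a covariate Csf1r and Clec5a had adjusted p-values of 0.0546 and 0.065.

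Of the 7 Src and Tec family kinases 2 had a region effect. Fgr, a Src family kinase of myeloid cells, was at 15.57 ± 5.15 CPM in midbrain and 3.363 ± 1.73 in PFC samples (SD, n = 12 and 11; log2 fold change -2.21 ± 0.30 SE; adjusted p = 2.18e-06), and was also lower in the striatum (-1.46 ± 0.28; adjusted p = 7.79e-04). Of 15 scaffolds and adaptors downstream of SYK, Lat2, which links immune receptors to PLCG enzymes, fell in steps from 305.9 ± 33.9 CPM in the midbrain to 210.1 ± 30.1 in the striatum and 168.8 ± 25.5 in the PFC, past the threshold in all 3 pairs (adjusted p = 5.37e-10 for PFC over midbrain, 9.66e-06 for striatum over midbrain and 0.0442 for striatum over PFC). The last of these was lost with the astrocyte markers as a covariate (adjusted p = 0.197). Bcl10 was lower in the striatum by -0.365 ± 0.08 (adjusted p = 0.00485). In the PI3K and AKT branch 5 of 15 had a region effect. Pik3r2 and Pik3r5, regulatory subunits of PI3K, were higher in the striatum than in the midbrain by 0.49 ± 0.12 and 0.26 ± 0.08 (adjusted p = 0.00686 and 0.0322, the latter 0.102 with the astrocyte covariate), and Mtor was past the threshold in no pair.

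In the branch of phospholipase C, calcium and PKC, 3 of 12 had a region effect, and all called differences were higher outside the midbrain. Plcg1, the close relative of Plcg2, was higher in the striatum by 0.61 ± 0.15 (log2; adjusted p = 0.00987), Prkca in the PFC by 0.49 ± 0.12 (adjusted p = 0.00582), and Ppp3ca in the PFC by 0.24 ± 0.06 (adjusted p = 0.0103) and in the striatum by 0.19 ± 0.06 (adjusted p = 0.0497, and 0.0688 without the midbrain sample of mouse 6). Of 10 inhibitory receptors and phosphatases 3 had one. Cd300a, an inhibitory lipid receptor, was higher by 0.445 ± 0.06 in the PFC and 0.34 ± 0.05 in the striatum (adjusted p = 5.69e-07 and 6.81e-05), Cd33 was higher in the PFC by 0.185 ± 0.05 (adjusted p = 0.0245), and Dok3 was lower there by -0.25 ± 0.06 (adjusted p = 0.00998).

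**Figure D5:**
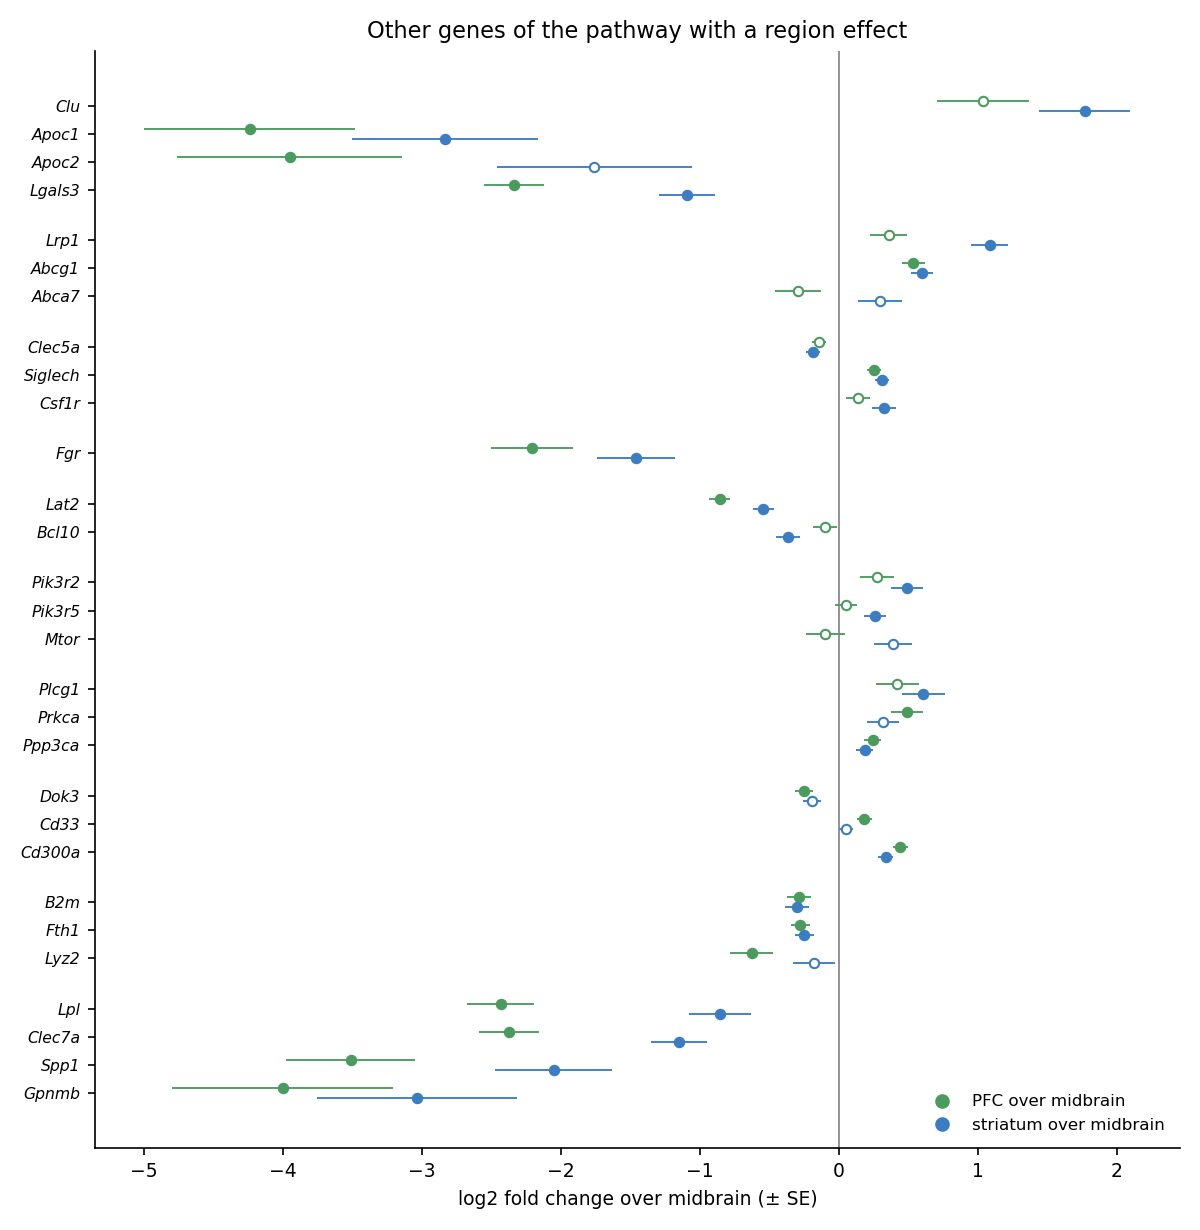
Log2 fold change over midbrain (x axis) with its SE for genes of the pathway lists with a region effect, for PFC (green) and striatum (blue), filled where the adjusted p was under 0.05. Up to 4 genes of each list are drawn, those with the largest change, and some are not reported here. Clec7a (-2.37 in the PFC) and Spp1 (-3.51) lie far to the left, Apoc1 (-4.24 in the PFC, from counts near the floor) farthest to the left, and Clu (1.77 in the striatum) farthest to the right.

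Transcripts that define the disease-associated state of microglia, which is entered in steps before and after a need for TREM2, were more often lower than higher in the PFC and striatum beside the midbrain. Apoe and Tyrobp belong to the former step themselves, and of 5 others listed for it, Lyz2 (-0.62 ± 0.16), B2m (-0.29 ± 0.09) and Fth1 (-0.28 ± 0.07) were lower in the PFC than in the midbrain (adjusted p = 0.00878, 0.0348 and 0.00646), whereas Ctsb (-0.01) and Ctsd (-0.05) were not called. Without the midbrain sample of mouse 6 the adjusted p of B2m was 0.0648. Of 14 transcripts of the TREM2-dependent step, 9 had a region effect, with 8 lower and 1 higher (Timp2, 0.19 ± 0.04) in the PFC than in the midbrain, and 7 lower and 1 higher in the striatum.

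The 4 transcripts of the TREM2-dependent step with the largest changes are given here, out of the 8 that were lower in the PFC. Of the others, Csf1 (-0.06) and Cd63 (-0.01) had no region effect and differed little between PFC and midbrain. Ctsz had a region effect (adjusted p = 0.0308) but was past the threshold in no pair. Its log2 fold change was -0.07 for PFC over midbrain and 0.24 for striatum over PFC (adjusted p = 0.716 and 0.0742). Clec7a, a lectin receptor that also signals through SYK, ranged from 18.14 to 47.35 CPM in the midbrain, 7.169 to 22.64 in the striatum and 1.646 to 8.124 in the PFC, with no overlap between midbrain and PFC (log2 fold change -2.37 ± 0.22; adjusted p = 5.37e-10). Lpl, the lipoprotein lipase, ranged from 19.54 to 40.75, 9.309 to 27.62 and 1.356 to 8.102 CPM (PFC over midbrain -2.43 ± 0.24; adjusted p = 5.91e-09). Spp1, which encodes osteopontin, went from a median of 47.07 CPM in the midbrain to 12.33 in the striatum and 5.921 in the PFC (PFC over midbrain -3.51 ± 0.46; adjusted p = 2.6e-06). Gpnmb had a mean of 1.527 CPM in the midbrain and was at 0 in at least 1 sample of each region, and its log2 fold change of -4.00 depends on counts near the floor. These 4 differences kept their direction with the replicate block, without the midbrain sample of mouse 6 and in each set of mice.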

How the data were processed

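RNA from tdTomato-positive microglia was extracted, amplified with the Smart-Seq HT kit and sequenced as paired reads from Nextera XT libraries, which do not mark strand. The table deposited by the authors holds read counts for Ensembl genes, not normalised. Per the paper's methods they used FastQC, Trimmomatic and HISAT2 (names also listed in the submitters' processing notes) with the GRCm38 genome, and kept genes with at least 1 CPM in at least 1 group of region and sex. The counting tool and annotation release were not given in the sources used here.

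All 35 samples and 21236 genes were used, with symbols from GENCODE for 21103. Total counts were 37680501 to 54131421 per sample. Samples were grouped by the region and sex of their labels. For 1 sample the name of its column gives PFC and its label striatum (mouse 3), and the label was followed. A fit without this sample left the numbers of called members unchanged, with 1867 region effects over all genes against 1888 with it. Counts were normalised with TMM and fitted with edgeR 4.0.16 (robust quasi-likelihood F-tests, two-sided) in R 4.3.3, with region and sex as additive terms, and with separate means for the 6 groups for the interaction. Adjustment was by Benjamini-Hochberg over all genes, with a threshold of 0.05. CPM use TMM factors and log2 CPM a prior count of 2. Alternatives used DESeq2 1.42.0 and limma 3.58.1. Annotation and plots were made in Python 3.11.15 (matplotlib 3.10.9). Scripts were tested on simulated data.

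The 6 genes, the lists and the tests were chosen with earlier results of these data known. Genes named are the 6 members, up to 4 genes of each list with a region effect and the largest change, the most abundant gene of each marker list, and the 5 genes most like each member. Some genes that this rule names are not reported here. Other genes (Ctsb, Ctsd, Timp2, Csf1, Cd63 and Ctsz) were named after their values were seen. So were the astrocyte markers Gfap, Gjb6, S100b and Fgfr3, and the markers and Lyz2 in the midbrain of mouse 6. Apoa1, Lilrb4a and Lyve1 were listed but not analysed here. Samples of a mouse share its number in the labels, and their deviations from group means had a mean r of 0.347 over 34 same-mouse pairs (32 of them over 0.1, lowest -0.266) against -0.0675 over 170 pairs of different mice. No columns were identical. Alternatives were DESeq2, other size factors and filters, the replicate block (for sex, limma with the mouse as a random effect), fits of fewer samples, each mouse left out, marker covariates and the study's thresholds. A marker covariate was the mean log2 CPM of the listed transcripts. The fit without the midbrain sample of mouse 6 and the transcript length covariate were added after the data were seen.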

Additional observations from a re-analysis of the deposited data

Results flagged for a closer look

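Of 36 groups of region and sex tested over the 6 members, 4 held a sample far from the others, and chance flags about 1 in 20 groups. Apoe was at 2257 CPM in the midbrain sample of mouse 6, with the nearest female at 685.2 CPM. In the striatum of the same mouse Inpp5d was at 545.9 CPM, with the nearest female at 748.1. Trem2 was at 1965 CPM in the PFC of mouse 5, with the nearest male at 1531, and at 1779 CPM in the striatum of mouse 1, with the nearest male at 1627. Values and fits for Apoe without the midbrain sample of mouse 6 stand in the results.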

How the results depend on the processing

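The number of members with a region effect, 0, became 1 with the replicate block (Inpp5d), 2 with a covariate for mice 1 to 6 against 7 to 12 (Apoe and Inpp5d), 1 with the astrocyte covariate (Apoe) and 1 with the length covariate (Trem2). For PFC over midbrain the 1 call, Apoe, became 0 with the block, with only the samples of both regions, in either set of mice (1 to 6 or 7 to 12), with the border macrophage covariate, without the midbrain sample of mouse 6 and under the study's thresholds, and leaving out each mouse gave 0 to 1. For striatum over midbrain 0 became 1 with the block and the mouse set covariate (Inpp5d) and with the length covariate (Trem2), and for striatum over PFC 0 became 1 with the length covariate (Trem2). Sex and interaction stayed at 0 members throughout. Apart from these calls the block changed no other call of a member. Called pathway genes went from 32 to 12 (PFC over midbrain) and from 32 to 11 (striatum over midbrain) in mice 1 to 6 alone, and from 5 for striatum over PFC to 17 with the block, 12 with DESeq2, 2 in mice 7 to 12, 13 with the mouse set covariate and 16 under the study's thresholds. Over all genes, 1888 region effects became 2977 with the block and 512 in mice 1 to 6, and 121 calls for striatum over PFC became 614 with the block and 342 with DESeq2. Fits of a set of mice hold fewer samples, and otherwise the cause was not tested. Of 52 called differences of the named pathway genes, 52 were still called with the block, 52 with DESeq2, 50 without the midbrain sample of mouse 6, 46 with the astrocyte covariate, 52 with the length covariate, 21 in mice 1 to 6 only and 35 in mice 7 to 12 only, and 0 changed direction. The 6 lost with the astrocyte covariate were B2m (adjusted p = 0.0609), Clec5a, Csf1r, Pik3r5 and Ppp3ca (0.0742) for striatum over midbrain and Lat2 for striatum over PFC.

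Uncalled differences near 0 changed sign as follows, on the log2 scale. In mice 1 to 6, Syk was at -0.069 for PFC over midbrain, Trem2 at -0.024 and Plcg2 at 0.125 for striatum over midbrain, Tyrobp at -0.108 for striatum over PFC, and Inpp5d at 0.026 for female over male. In mice 7 to 12, Tyrobp was at 0.056 and Apoe at 0.299 for striatum over midbrain, and Syk at -0.031 for striatum over PFC. Tyrobp was at 0.063 for striatum over midbrain with the length covariate and at -0.015 for striatum over PFC with the border macrophage covariate. With that covariate Apoe was at 0.007 for striatum over midbrain, and without the midbrain sample of mouse 6 at 0.125, and Syk was at -0.014 for striatum over PFC with the astrocyte covariate. Apoe for female over male was at -0.082 in the striatum alone, -0.129 in the PFC alone and -0.001 without the midbrain sample of mouse 6. Leaving out each mouse gave -0.01 to 0.08 for Syk in PFC over midbrain, -0.397 to 0.21 for Apoe in striatum over midbrain, -0.022 to 0.087 for Tyrobp in striatum over PFC and -0.115 to 0.006 for Inpp5d in female over male, and -1.313 to -0.752 for Apoe in PFC over midbrain. Leaving out each mouse gave 28 to 32 called pathway genes for PFC over midbrain, 26 to 32 for striatum over midbrain and 4 to 6 for striatum over PFC.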
